A study of Mus musculus with 10 samples.

Results

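This account covers 8 genes of lipid droplet coats, lipases with a coactivator, and Faah, a hydrolase of fatty acid ethanolamides. They were chosen by name from a table of 24368 genes: Plin2, Plin3, Cideb, Cidec, Pnpla2, Abhd5, Mgll and Faah. All 8 were found and all 8 passed the filter on low values, which kept 14062 genes. The data are RNA-seq of total RNA from the proximal jejunum of mice, with 5 libraries labelled WT (littermates, numbered 1, 3, 4, 5 and 6) and 5 labelled HuR cKO (numbered 1 to 5). The cKO mice carry a conditional deletion of HuR, the RNA-binding protein encoded by Elavl1, in the intestinal epithelium, and the series concerns the part of HuR in fat absorption. The driver and the deleted exons, and the strain, age, sex and diet of the mice, are not given in these sources. Values are normalised reads, that is read counts scaled by a size factor for each library, so that a value can be compared between libraries.

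Enterocytes take up fatty acids and monoacylglycerol after a fatty meal, rebuild triglyceride in the endoplasmic reticulum, and send it out in chylomicrons or hold it for a time in cytosolic lipid droplets. Perilipins such as Plin2 and Plin3 coat those droplets and CIDE proteins such as Cideb and Cidec govern lipid transfer into and between lipid particles. Pnpla2 with its coactivator Abhd5 opens triglyceride breakdown, Mgll splits monoacylglycerol, and Faah, a membrane-bound hydrolase, splits fatty acid ethanolamides such as anandamide and the satiety lipid oleoylethanolamide.

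Of the 8 genes, Faah fell in the libraries labelled cKO and no other passed the test (limma, Benjamini-Hochberg adjusted p under 0.05 over all genes tested, as everywhere below). Over all genes tested 1.32% passed, 0.882% as lower and 0.441% as higher. The log2 fold change was below 0 for 7 of the 8 genes, against 49% of all genes, and above 0 for Mgll. The median over the 8 was -0.40, beside 0.01 over all genes tested. It was -0.24 without cKO 3 and -0.14 without cKO 3 and cKO 5, a pair of libraries described below. At an unadjusted limma p under 0.05 there were 3 of 8 genes (Faah, Abhd5 and Pnpla2, all with lower means in cKO), against 18.6% of all genes in either direction and 10.1% as lower. Without cKO 3 and cKO 5 this held for 1, Faah. Across the fits that leave out 1 library it held for 2 to 5 genes: 2 without WT 1, WT 4, WT 5 or cKO 3, and 5 without cKO 4. The groups did not overlap for 1 gene, Faah, while 4.87% of all genes showed no overlap, 3.01% with cKO lower.

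**Figure D1:**
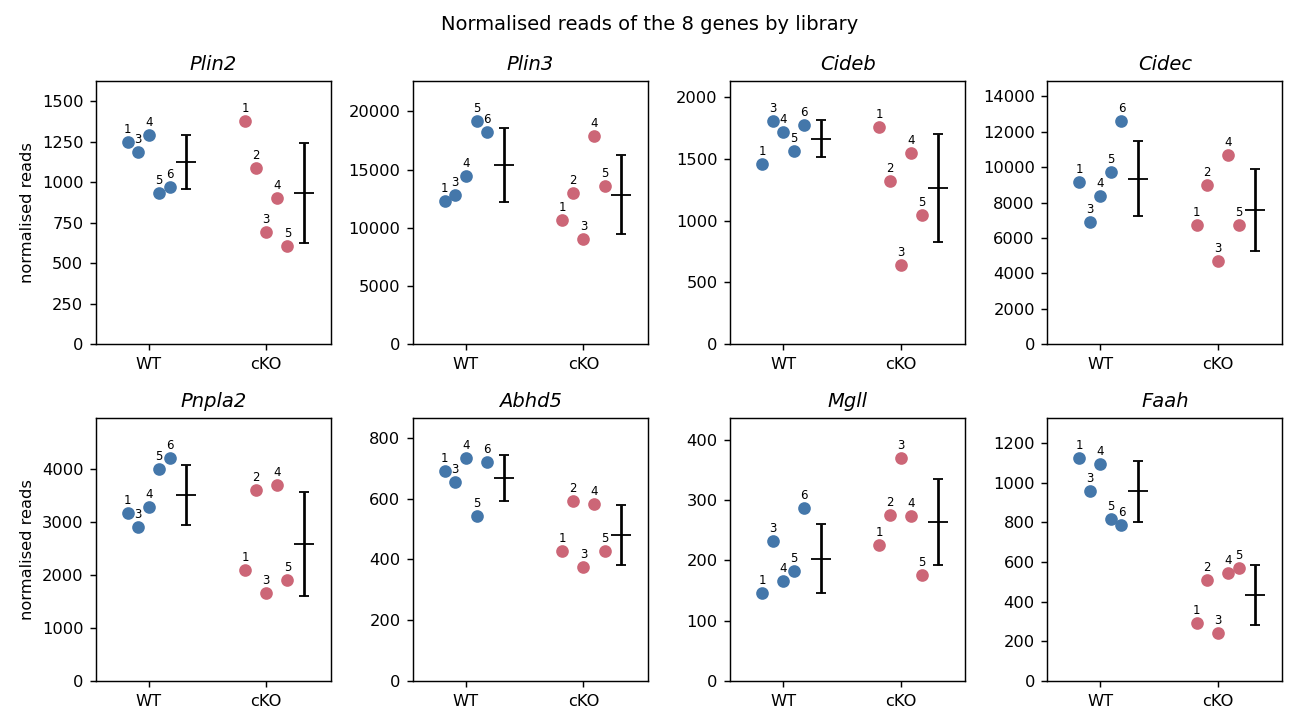
Normalised reads (vertical axes, each from 0) of the 8 genes in the 5 WT and 5 cKO libraries. Each point is 1 library with its replicate number, and the bar beside the points gives the mean and SD. The 5 cKO values of Faah lie below the 5 WT values, and the groups overlap in the other 7 panels.

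Facts of the libraries bear on these genes as follows. Recovered reads ran from 16063987 to 18927440 per library, and the lowest single count among the 8 genes was 143 (Mgll in WT 1), where counting error alone is 8.36%. Mitochondrial genes took 9.48% of the reads in cKO 1 and 2.69% to 6.09% in the other 9 libraries. For Elavl1, the targeted gene, WT libraries averaged 666 ± 35.97 normalised reads and cKO libraries 633 ± 60.6 (SD over 5 libraries of each genotype; two-sided exact permutation p = 0.341, smallest possible 0.00794). Its log2 fold change of -0.08 (95% interval -0.36 to 0.21) turned positive in 2 other scalings, so this count over the whole gene is no check of the labels, and directions follow the labels as given. The libraries cKO 3 and cKO 5 stand apart from the rest in clock genes: Per2, a core clock repressor, was at 12.7 and 16.03 there and between 342 and 749 in the other 8. All 10 enterocyte markers were present, and none passed the test. Their summed level was 941791 to 1202640 in WT and 770592 to 1473300 in cKO, lowest in cKO 3. Of the 10, 8 had a log2 fold change below 0, and their median was -0.23, or 0.01 without cKO 3 and cKO 5; the part of this in the values of the 8 genes was not tested. Of 6 fibroblast markers Col1a1 and Col3a1 rose, with log2 fold changes of 1.02 and 0.75 (limma adjusted p = 0.0426 and 0.0357). Without cKO 3 and cKO 5 both calls were lost (limma adjusted p = 0.193 and 0.109), at log2 fold changes of 0.88 and 0.72. Of 6 endothelial markers Lyve1 rose, also without that pair (limma adjusted p = 0.00272 and 0.0225). The fibroblast sum was 4847 to 6066 in WT and 6211 to 9835 in cKO. The endothelial sum was 456 to 633 in WT and 919 to 1729 in cKO, so neither sum overlapped between groups. Lyve1 made up a large part of the endothelial sum, with 194 to 385 in WT and 513 to 1045 in cKO. Pecam1, Cdh5, Kdr, Tie1 and Flt4 each overlapped between groups, as did the fibroblast markers Pdgfra, Dcn and Lum. Tissue RNA holds many cell types, so fewer cells of a type and less RNA per cell cannot be told apart.

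The droplet coats differed widely in level. Normalised reads per kb of gene length put Cidec (5037 ± 1133 in WT, SD, n = 5) and Plin3 (4069 ± 830 per kb) at the top. Their WT ranges overlapped, so the order of this pair is not fixed by these data. Pnpla2 (1161 ± 186 per kb) and Cideb (1119 ± 101 per kb) came next, also with overlapping ranges, then Plin2 (321 ± 47.2 per kb) apart from its neighbours. Faah (122 ± 19.7 per kb) and Abhd5 (112 ± 12.8 per kb) overlapped in WT, and Mgll (39.96 ± 11.2 per kb) was lowest, with a WT range below that of Abhd5. Cidec and Plin3 lay at percentiles 98.7 and 98.4 of all genes tested on this scale, and Mgll at 47.97. In cKO the order of the means was the same except that Faah (55.2 ± 19.4 per kb) stood below Abhd5 (80.7 ± 16.6 per kb), with ranges that overlapped each other. Mgll in cKO (52.0 ± 14.2 per kb) ran from 34.6 to 72.9. That range overlapped those of Faah (31.2 to 73.0) and Abhd5 (63.1 to 99.2), so the lowest place in cKO is not fixed by these data.

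**Figure D2:**
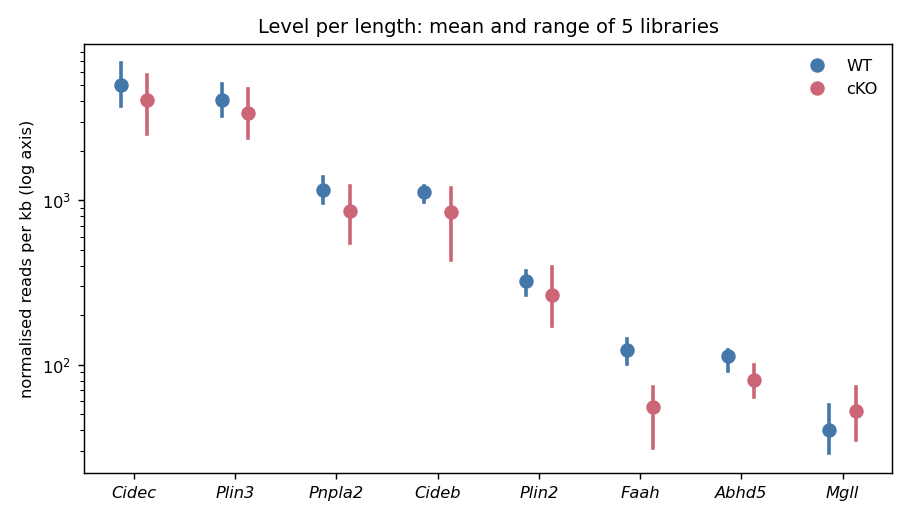
Level per length (normalised reads per kb, log axis) of the 8 genes, ordered by the WT mean. Points are means of 5 libraries and lines the range from the lowest to the highest library; Cidec and Plin3 lie above the other 6 genes in both groups, and the ranges of WT and cKO are apart for Faah.

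Plin2, or adipophilin, is the perilipin present on droplets of most cells and is broken down when it is not bound to lipid. It lies at chr4:86648386-86670060 on the minus strand (mm10). Normalised reads were 1249, 1190, 1294, 931 and 970 in WT 1, 3, 4, 5 and 6, and 1377, 1089, 694, 904 and 605 in cKO 1, 2, 3, 4 and 5. The highest of the 10 values was in cKO 1 and the lowest in cKO 5 and cKO 3, with 3 cKO values below the WT range and 1 above it. The spread was 14.7% of the mean in WT and 33.3% in cKO. For Plin2 the log2 fold change was -0.32 (95% interval -0.77 to 0.13, limma adjusted p = 0.427), and -0.01 without cKO 3 and cKO 5 (limma adjusted p = 0.987).

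The promoter window of Plin2 is shown because it alone, among the windows of the 8 genes, holds all of the motifs searched: the E-box CACGTG, the nuclear receptor element AGGTCA and the GC box GGGCGG. It runs from 250 bases before to 50 after the RefSeq start (GRCm38.p6, chr4:86670010-86670309, minus strand, printed 5′ to 3′), with the matches in capitals (AGGTCA as its reverse complement), searched on both strands with no overlap between them.
Plin2: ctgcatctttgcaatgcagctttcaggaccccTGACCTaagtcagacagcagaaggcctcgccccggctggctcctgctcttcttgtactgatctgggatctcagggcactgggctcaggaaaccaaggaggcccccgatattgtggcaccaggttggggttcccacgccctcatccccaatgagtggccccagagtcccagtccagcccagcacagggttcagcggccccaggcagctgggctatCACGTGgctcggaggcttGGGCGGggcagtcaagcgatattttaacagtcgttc
The table held 10 promoter windows for the 8 genes. CACGTG was in 2 of them (Plin2 and 1 of the windows of Mgll) and in 7.15% of all 32851 windows. AGGTCA was in 2 (Plin2 and Abhd5) and in 16.3% of all, and GGGCGG in 8 and in 35.7% of all. These matches describe the letters of the windows only. Cideb, Cidec and Pnpla2 have no CACGTG in their windows, and a link between any motif and the values of a library was not tested.

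Plin3, or TIP47, is the perilipin that moves from the cytosol onto newly formed droplets, and lies at chr17:56277476-56292873. Normalised reads were 12277, 12839, 14478, 19165.5 and 18260 in WT 1, 3, 4, 5 and 6, and 10678, 12978, 9043, 17911 and 13627 in cKO 1, 2, 3, 4 and 5. The values of cKO 1 and cKO 3 were below the WT range and the other 3 within it. Between genotypes the log2 fold change was -0.28 (95% interval -0.73 to 0.17, limma adjusted p = 0.501). Plin3 had the log2 fold change nearest to 0 among the 8.

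Within a library the balance of the perilipins did not separate the groups. The log2 ratio of Plin2 to Plin3 per kb, which does not depend on the size factor, ran from -4.25 to -3.19 in WT and from -4.38 to -2.85 in cKO. Its mean was -3.65 ± 0.50 in WT and -3.70 ± 0.61 over the cKO libraries (SD, n = 5). It was lower in WT 5, WT 6, cKO 4 and cKO 5 than in the other 6 libraries, so the ratio varied more between libraries than between genotypes.

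Cideb, a CIDE protein of the endoplasmic reticulum and droplets that takes part in loading lipid onto lipoproteins, lies at chr14:55754050-55758458. Normalised reads were 1456, 1806, 1722, 1561 and 1777 in WT 1, 3, 4, 5 and 6, and 1761, 1320, 642, 1547 and 1044 in cKO 1, 2, 3, 4 and 5. The WT values were close together, with a spread of 9.01% of the mean, the smallest of the 8 genes. The cKO values spread over 34.6% of their mean, and 3 of them (cKO 2, 3 and 5) lay below the WT range. Its log2 fold change was -0.48 (95% interval -0.96 to 0.01, limma adjusted p = 0.275), and -0.11 without cKO 3 and cKO 5 (limma adjusted p = 0.814). Cideb shares 1451 bases with Nop9 on the opposite strand, with a mean of 193 ± 34.2 for WT and of 215 ± 51.6 for cKO (SD, n = 5). Whether the counting used strand is not given.

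Cidec, a CIDE protein that sits where droplets touch and lets them grow, lies at chr6:113424634-113435760. Normalised reads were 9176, 6903, 8358, 9706 and 12599 in WT 1, 3, 4, 5 and 6, and 6759, 8997, 4692, 10664 and 6709 in cKO 1, 2, 3, 4 and 5. The lowest value was in cKO 3, and cKO 2 and cKO 4 lay within the WT range. For Cidec the log2 fold change was -0.33 (95% interval -0.81 to 0.15, limma adjusted p = 0.446), and -0.08 without cKO 3 and cKO 5 (limma adjusted p = 0.903).

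Fat cells as well make Cidec, Plin2, Pnpla2 and Mgll. Of the 8 adipocyte markers none was at 0 in all libraries and none passed the test. Their summed level was 278 to 1615 in WT and 303 to 1946 in cKO. Pparg made up most of the lowest sums, at 310 in WT 1, 248 in WT 4, 281 in cKO 2 and 214 in cKO 5. In these libraries Plin1, Retn and Lep were at 0. Adipoq, the defining hormone gene of fat cells, was at 0 in WT 1, WT 4, cKO 2 and cKO 5, where Cidec stood between 6709 and 9176. It was highest in WT 6 (246) and cKO 4 (224), the libraries with the highest Cidec values of their groups, but WT 3, with the lowest WT value of Cidec, had 188, and cKO 3, with the lowest Cidec value of all, had 65.0. The log2 ratio of Cidec to Cideb per kb was 2.15 ± 0.36 in WT and 2.29 ± 0.38 over the cKO libraries (SD, n = 5), and the groups overlapped.

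Pnpla2, or adipose triglyceride lipase, releases a fatty acid from triglyceride and lies at chr7:141455198-141460743. Normalised reads were 3159, 2899, 3276, 3998 and 4201 in WT 1, 3, 4, 5 and 6, and 2084, 3594, 1651, 3686 and 1902 in cKO 1, 2, 3, 4 and 5. The cKO values fell into a low set (cKO 1, 3 and 5) below every WT value and a pair (cKO 2 and 4) inside the WT range. The log2 fold change was -0.51 (95% interval -0.99 to -0.02, unadjusted p = 0.0420, limma adjusted p = 0.251). Without cKO 3 and cKO 5 it was -0.20 (limma adjusted p = 0.732).

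Abhd5, or CGI-58, binds Pnpla2 and raises its activity, and lies at chr9:122351608-122381524. Normalised reads were 689, 654, 734, 544 and 721 in WT 1, 3, 4, 5 and 6, and 426, 591, 376, 581 and 428 in cKO 1, 2, 3, 4 and 5. The same libraries were low as for Pnpla2: cKO 1, 3 and 5 were below the WT range, and cKO 2 and 4 were above the lowest WT value, that of WT 5. The log2 fold change was -0.49 ± 0.17 (SE; 95% interval -0.85 to -0.14, unadjusted p = 0.00959, limma adjusted p = 0.138), and -0.33 without cKO 3 and cKO 5 (limma adjusted p = 0.468). The authors' deposited table gives Abhd5 a log2 fold change of -0.51 with an adjusted p of 0.0413. That table also holds 2 per-sample columns not used here, so its fit may rest on other libraries. DESeq2 on the 10 libraries used here gave -0.48 (DESeq2 adjusted p = 0.102).

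Within libraries the ratio of the lipase to its coactivator was much alike in the groups, untested. The log2 ratio of Pnpla2 to Abhd5 per kb was 3.36 ± 0.32 in WT and 3.35 ± 0.25 over the cKO libraries (SD, n = 5), a difference of -0.02. It ran from 3.13 to 3.86 in WT and from 3.11 to 3.64 in cKO.

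Because HuR binds AU-rich stretches of messenger RNAs, the 3′ untranslated regions of the 8 genes were searched for ATTTA and for the longer TATTTAT, which contains it (GENCODE annotation on GRCm38, longest annotated region of each gene, transcribed strand only). TATTTAT was present once in Cidec and once in Pnpla2 and in none of the other 6. It is found in 22.4% and 26.3% of genes with a region of similar length. The windows below show the match in capitals, at chr6:113424637-113424661 on the minus strand and chr7:141460036-141460060 on the plus strand.
Cidec: gcagtaaacTATTTATgctgatacc
Pnpla2: gtgaagaatTATTTATttttgccaa
Neither of the genes with this longer match passed the test, and whether HuR acts through any of these matches was not tested. ATTTA was most frequent in Abhd5, with 7 matches in 1922 bases, and absent from Plin2 (468 bases) and Cideb (386 bases). Of genes with regions as long as those of Abhd5, Plin2 and Cideb, 89.6%, 48.1% and 43.2% hold at least 1.

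Mgll, monoacylglycerol lipase, completes triglyceride breakdown and also degrades the endocannabinoid 2-arachidonoylglycerol. It lies at chr6:88724412-88828360 and was the gene of lowest mean level. Normalised reads were 146, 233, 166, 183 and 287 in WT 1, 3, 4, 5 and 6, and 226, 275, 370, 273 and 176 in cKO 1, 2, 3, 4 and 5. The highest value was in cKO 3, where 6 of the other 7 genes had their lowest value of all 10 libraries. The remaining 4 cKO values lay within the WT range. Mgll had a log2 fold change of 0.38 (95% interval -0.10 to 0.85, limma adjusted p = 0.376), and 0.38 without cKO 3 and cKO 5 (limma adjusted p = 0.512). The 6 smooth muscle markers, none past the test, summed to 26950 to 44754 in WT and 22990 to 56604 in cKO. Their lowest sums were in WT 1 for WT and cKO 5 for cKO, as for Mgll, and their part in the Mgll values was not tested.

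Faah, fatty acid amide hydrolase (ENSMUSG00000034171), lies at chr4:115967145-116017926 on the minus strand (mm10). Normalised reads were 1126, 959, 1094, 816 and 789 in WT 1, 3, 4, 5 and 6, and 292, 507, 244, 545 and 572 in cKO 1, 2, 3, 4 and 5. Every cKO value lay below every WT value, with the lowest levels in cKO 3 and cKO 1. WT libraries averaged 957 ± 154 and cKO libraries 432 ± 152 (SD, n = 5). Fitted on log2(value + 1), Faah fell 2.32-fold, with a log2 fold change of -1.21 ± 0.23 (SE; 95% interval -1.71 to -0.72, limma adjusted p = 0.0233). The lowest Faah count was 230 reads, where counting error is 6.59%. In all 5 cKO libraries the value was 25.5% to 59.7% of the WT mean. Without cKO 1, the library with the most mitochondrial reads, the log2 fold change was -1.09 (limma adjusted p = 0.0387).

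Without cKO 3 and cKO 5, the libraries that stand apart in clock genes, Faah still passed at a log2 fold change of -1.13 (limma adjusted p = 0.0436), where 0.214% of all genes passed as lower and no other of the 8 genes did. In edgeR on recovered reads Faah had -1.14 (edgeR adjusted p = 0.0269), where 1.31% of all genes passed, 0.79% as lower. In DESeq2 it had -1.15 (DESeq2 adjusted p = 0.000539), where 2.78% passed as lower. With a block for the replicate number, over the 8 libraries that allow it, Faah had -1.36 (limma adjusted p = 0.0305), where 0.604% passed as lower. The authors' deposited table gives -0.91 with an adjusted p of 0.0166, from a fit that may rest on other libraries, as for Abhd5. Of its 24368 genes, with no filter applied, 1.53% have an adjusted p under 0.05 and a lower level in cKO. The call was lost when WT 1, WT 3 or WT 4 was left out, at a limma adjusted p of 0.0586, 0.0584 and 0.0779 with log2 fold changes of -1.15, -1.21 and -1.16. The enterocyte, fibroblast and endothelial sums given above differ between libraries as well, and their part in the fall of Faah was not tested.

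The promoter window of Faah (GRCm38.p6, chr4:116017875-116018174, minus strand, printed 5′ to 3′) is shown as that of the gene that fell. Of the motifs searched it holds GGGCGG on each strand, in capitals, and neither CACGTG nor AGGTCA.
Faah: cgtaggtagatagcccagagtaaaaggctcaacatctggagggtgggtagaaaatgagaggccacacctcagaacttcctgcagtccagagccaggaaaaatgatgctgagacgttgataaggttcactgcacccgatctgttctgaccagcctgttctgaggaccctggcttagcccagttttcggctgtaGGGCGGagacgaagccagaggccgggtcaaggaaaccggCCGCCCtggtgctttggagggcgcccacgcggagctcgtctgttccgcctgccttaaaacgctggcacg
Its 3′ untranslated region of 1818 bases holds 3 matches to ATTTA, which 88.5% of genes with a region of similar length hold at least once. The matches stand 1086, 1423 and 1807 bases after the stop codon, at chr4:115997386-115997410, chr4:115997049-115997073 and chr4:115996669-115996689, and the last window ends with the transcript.
Faah 1086: ggatggcagATTTAtttctagcgaa
Faah 1423: caactgtgtATTTAcactgtaggtc
Faah 1807: aataaaataATTTAtgctgat

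Mgll and Faah, the hydrolases of lipid signals, can be set against each other within a library. The log2 ratio of Mgll to Faah per kb was -1.63 ± 0.59 in WT and -0.04 ± 0.85 over the cKO libraries (SD, n = 5). It was highest in cKO 3 (1.22) and cKO 1 (0.26), and the value of cKO 5 (-1.07) lay within the WT range of -2.31 to -0.83. As this pair holds the gene that fell, the ratio is a description and was not tested.

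**Figure D3:**
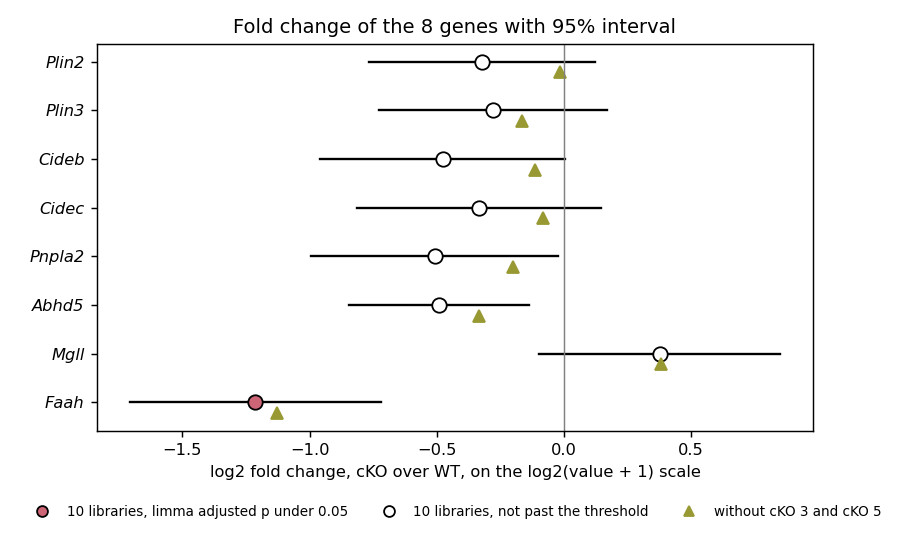
Log2 fold change of cKO over WT for the 8 genes (circles, limma on the log2(value + 1) scale, 10 libraries) with 95% intervals (lines), and the same without cKO 3 and cKO 5 (triangles). The filled circle, Faah at -1.21, is the 1 gene past the adjusted p threshold; without the 2 libraries the values of Plin2 (-0.01), Cidec (-0.08) and Cideb (-0.11) lie close to 0, and those of Faah (-1.13) and Mgll (0.38) lie close to the values with all libraries.

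Seen by library, low values were most frequent in cKO 3, followed by cKO 5 and cKO 1. In cKO 3 values of 7 genes were below the WT range, in cKO 5 those of 6 and in cKO 1 those of 5. The libraries cKO 2 and cKO 4 had 2 each. The share of all genes tested that lay below the WT range was not counted for any library. Whether these counts are unusual for such libraries was therefore not tested. Relative to the WT mean of each gene, cKO 3 held Cideb at 38.6%, Pnpla2 at 47.1%, Cidec at 50.2%, Abhd5 at 56.2%, Plin3 at 58.7% and Plin2 at 61.6%. In cKO 4 Plin3, Cidec and Pnpla2 stood at 116%, 114% and 105% of the WT mean while Faah stood at 56.9%. In cKO 1 Plin2 and Cideb stood at 122% and 106% while Pnpla2 and Faah stood at 59.4% and 30.6%. The part of the clock state of cKO 3 and cKO 5 in these values was not tested, and the 2 libraries were not compared with the rest as groups.

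**Figure D4:**
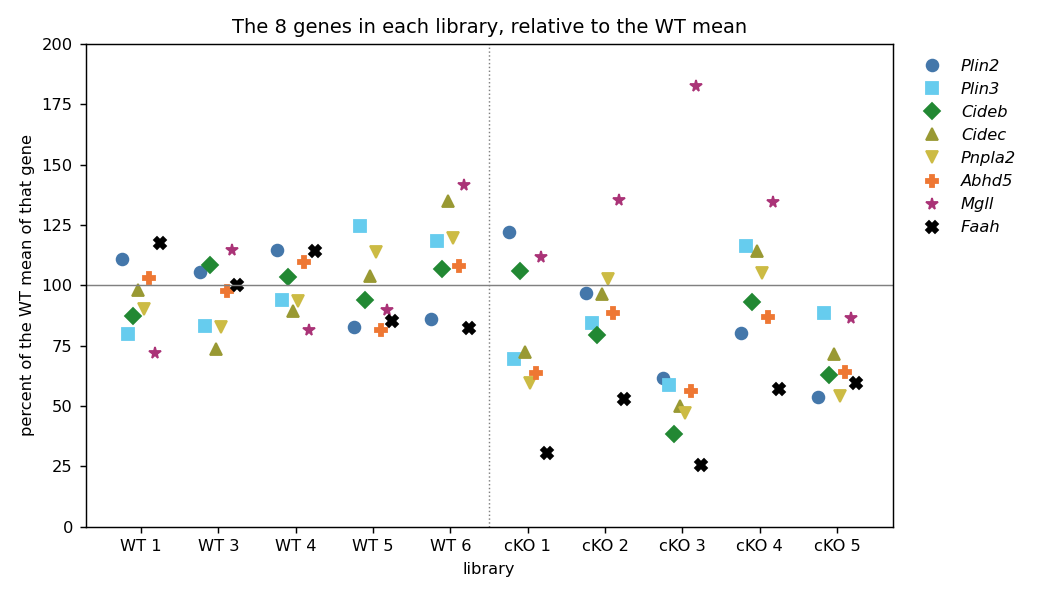
Value of each of the 8 genes (symbols) in each library as a percent of the WT mean of that gene (line at 100). Faah lies between 25.5% and 59.7% in every cKO library, while 6 other genes lie between 38.6% and 61.6% in cKO 3 and Mgll lies at 182% there.

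The genes whose values followed each member most closely were sought over the 10 libraries after removing each group's mean, among 8573 other genes with a mean of at least 100. Pearson's r is given as a description, since 10 libraries and many genes give high values by selection. For Faah they were Acvr1 (r = 0.95), Slc6a6 (r = 0.95) and Letm1 (r = 0.95). Cidec was followed by Slc25a25 (r = 0.99), Pitpna and Slc25a22, and Pnpla2 by Snx3 (r = 0.97), Sult2b1 and Tmc8. Cidec and Pnpla2 had an r of 0.91 with each other, the closest pair among the 8 genes. Plin3 was followed by BC029722 (r = 0.98), Arpc1b and Ap5b1, Plin2 by Gm5436 (r = 0.96), Gstt2 and Gramd3, and Cideb by Acy1 (r = 0.97), Aprt and Gipc2. Abhd5 was followed by Psmc4 (r = 0.96) and Ndrg1. Mgll was followed by Lama4 (r = 0.95), a laminin chain gene, Kank2 and Cavin1, a caveolar coat gene, and its highest r with another of the 8 was 0.15.

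Other genes of the same processes showed few changes. Among 12 tested genes of droplet coats and droplet formation none passed, with 6 below 0, against 49% of all genes. Their median log2 fold change was -0.07 (0.01 over all genes), or 0.07 without cKO 3 and cKO 5. At an unadjusted limma p under 0.05, met by 18.6% of all genes, there was 1, Cav1, the caveolin gene (WT mean 817 ± 165, cKO mean 1244 ± 360, SD over 5 libraries, with a log2 fold change of 0.58 and a limma adjusted p = 0.168). Hsd17b13, a droplet-bound dehydrogenase gene, had -0.70 (limma adjusted p = 0.354) and -0.10 without cKO 3 and cKO 5. The fat cell perilipin Plin1 averaged 36.9 in WT and 34.4 in cKO, and Plin5 and Cidea did not reach the filter.

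Among 15 tested lipases, related hydrolases and their inhibitors 2 fell and none rose, against 0.882% and 0.441% of all genes. Pnpla1, of the same protein family as Pnpla2, is not on this list, and it rose at a low level. Its mean was 4.86 in WT and 22.3 in cKO (log2 fold change 2.04, limma adjusted p = 0.0310), and it was named after its values were seen. The median of the 15 listed genes was -0.14, or -0.003 without cKO 3 and cKO 5. Lipa, Pnpla6 and Abhd6, all below 0, had an unadjusted limma p under 0.05, against 18.6% of all genes in either direction and 10.1% as lower. Lipa, the lysosomal acid lipase that degrades triglyceride and cholesteryl ester delivered to lysosomes, had values of 2197, 1989, 1893, 1728 and 2005 in WT 1, 3, 4, 5 and 6 and of 1157, 1198, 691, 1316 and 1105 in cKO 1, 2, 3, 4 and 5. The groups did not overlap, and Lipa fell 1.83-fold (log2 fold change -0.87 ± 0.18 SE, limma adjusted p = 0.0307). Pnpla6, a lysophospholipase of the same protein family as Pnpla2, also had no overlap and fell 1.72-fold from a WT mean of 629 ± 51.02 to a cKO mean of 375 ± 94.05 (SD over 5 libraries; log2 fold change -0.78 ± 0.18 SE, limma adjusted p = 0.0465). Without cKO 3 and cKO 5 neither passed, at -0.68 (limma adjusted p = 0.0941) for Lipa and -0.72 (limma adjusted p = 0.148) for Pnpla6. Both calls were also lost without any 1 of the WT libraries (limma adjusted p of 0.0534 to 0.0784 for Lipa and 0.0933 to 0.116 for Pnpla6). They were lost without cKO 5 (limma adjusted p = 0.0504 and 0.0524), and that of Pnpla6 without cKO 1 (limma adjusted p = 0.0681), without cKO 3 (limma adjusted p = 0.114) and in edgeR (edgeR adjusted p = 0.0556). Of 21 alternatives in all, Lipa lost its call in 9 and Pnpla6 in 15. The hormone-sensitive lipase gene Lipe, which acts on diacylglycerol, had -0.52 (limma adjusted p = 0.271), and Abhd6, which shares monoacylglycerol with Mgll as substrate, -0.84 (limma adjusted p = 0.123); these were named after their values were seen. The inhibitors of Pnpla2, G0s2 and Hilpda, had -0.14 and 0.07.

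The genes around Faah in ethanolamide metabolism did not pass. Of 7 tested genes of ethanolamide and endocannabinoid signalling none was called and 6 were below 0, against 49% of all genes. Their median was -0.09, or -0.03 without cKO 3 and cKO 5. Only Gde1 had an unadjusted limma p under 0.05, against 18.6% of all genes in either direction and 10.1% as lower. Gde1, a phosphodiesterase on a route that makes ethanolamides, had -0.46 (limma adjusted p = 0.205), and Naaa, the lysosomal acid amidase that acts on some of the substrates of Faah, had -0.30 (limma adjusted p = 0.388) and -0.03 without cKO 3 and cKO 5. Napepld, the phospholipase of the main route, averaged 46.4 in WT and 44.99 in cKO. The receptor genes Cnr1, Cnr2 and Gpr119 did not reach the filter.

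PPAR receptors, their partners and responsive genes were included because PPARs raise several of the 8 genes in other tissues. None of 21 tested genes passed and 17 were below 0, against 49% of all genes. Their median was -0.30, or -0.18 without cKO 3 and cKO 5. Ppara, Rxra, Creb3l3, Cpt1a and Ucp2, all below 0, had an unadjusted limma p under 0.05. Of all genes 18.6% did so in either direction and 10.1% as lower. Rxra, the partner of the PPARs, had -0.50 (limma adjusted p = 0.178), and Cpt1a, the entry enzyme of mitochondrial fatty acid oxidation, had -0.39 (limma adjusted p = 0.191).

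**Figure D5:**
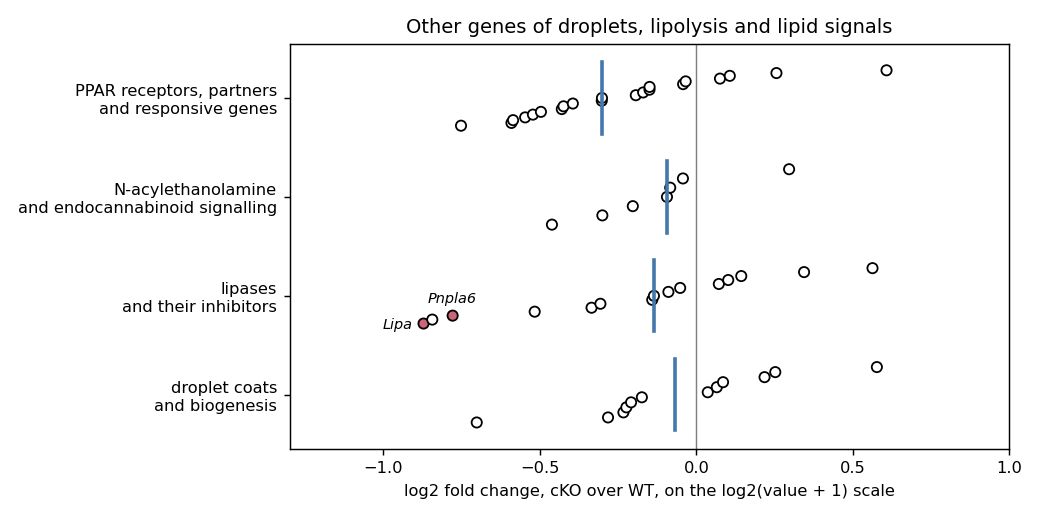
Log2 fold change of cKO over WT (limma, log2(value + 1) scale) of the tested genes in 4 lists of droplet, lipase, ethanolamide and PPAR genes. Each circle is 1 gene, filled where the adjusted p is under 0.05, and the vertical bars are list medians; Lipa and Pnpla6 are the 2 filled genes.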

How the data were processed

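The deposited table holds a normalised signal for each gene and library, gene coordinates and lengths, and the authors' log2 fold change with its raw and adjusted p-value. Per the submitters' processing notes, CASAVA, HISAT2 2.0.5, featureCounts 1.5.0-p3 and DESeq2 1.20.0 were used on mm10; roles, strand setting and annotation release are not given there. The signal of the authors is reads divided by 1 size factor per library, found from the values: 100% of values were whole multiples of a step within 0.001, and these reads were recovered. Another 2 columns of per-sample values matched no label and were not used.

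Signal values were analysed as log2(value + 1) for genes with a mean of at least 10, with genotype as the only term, in limma 3.58.1 (R 4.3.3, trend and robust moderation), and p-values were adjusted over all genes tested. edgeR 4.0.16 and DESeq2 1.42.0 on recovered reads were alternatives, beside other scalings, pseudocounts, filters, a block for the replicate number, and fits that leave out libraries. The steps were tested on simulated counts. The labels describe the libraries as from 5 mice of each genotype and give no batch, so p-values measure the spread between these libraries. The 8 genes and the lists were chosen with earlier results of these data known. Named list genes were those past the threshold (up to 4 a list), or else the 2 with the smallest p; any further list gene was picked once values were known. For likeness the 3 closest genes were named, of which 1 is not reported here. Sequences are from RefSeq promoters (GRCm38.p6) and GENCODE transcripts; 3′ untranslated regions of similar length are those within 20%. Figures were drawn with matplotlib 3.10.9.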

Additional observations from a re-analysis of the deposited data

How the results depend on the processing

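The sign of each of the 8 genes was the same in all 21 alternative fits, 168 values that rest on the same 10 libraries or a part of them. Plin2 was at only -0.01 without cKO 3 and cKO 5. Of the 168 values 3 lost a call, all for Faah. Faah ranged from -1.36 to -1.03 on the log2 scale, with an adjusted p of at most 0.0779. Across leave-one-out fits the number of the 8 genes called was 0 to 1, and of all genes 30 (without WT 4) to 611 (without cKO 4), against 186. Over all genes 727 passed in DESeq2, 512 at an adjusted p under 0.1, 56 without cKO 3 and cKO 5, and 89 in the 8 libraries whose replicate numbers occur in both groups. With the replicate block these 8 libraries gave 134, and the call of Faah was kept (-1.36, limma adjusted p = 0.0305). Deviations of same-numbered libraries from their group means correlated at -0.11 to 0.12. These correlations show no pairing by number and, over so few libraries, cannot exclude one. In edgeR, scaling by library totals in place of TMM moved the median of all genes from 0.04 to 0.14 and the calls from 73 higher and 111 lower to 95 and 79. In limma, totals without mitochondrial and the 20 most abundant genes in place of the deposited size factors moved the median from 0.01 to 0.11 and the calls from 62 higher and 124 lower to 73 and 87. Relative to the medians of 0.14 and 0.11 Faah stood at -1.18 and -1.22. Elavl1 turned positive in these scalings, at 0.032 and 0.028. With 5 libraries a group, the 95% intervals of Plin2, Plin3, Cideb, Cidec and Mgll hold 0 and reach a log2 fold change of -0.77, -0.73, -0.96, -0.81 and 0.85, so changes of that size could not be told from none.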
